A study of Mus musculus with 18 samples.

Results

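Ucp1, Ucp3, Dio2, Prdm16, Cidea, Elovl3, Cox8b, Cox7a1, Otop1 and Kcnk3 are genes that mark brown and beige adipocytes or their heat production, and they were followed here across 2 fat depots and 3 ages. They were taken by gene symbol from the probe sets that name a single gene, with the probe set of highest mean over all arrays standing for its gene. All 10 had exactly 1 such probe set, and they are 10 of 19938 genes measured in this way. The values are log2 expression levels on 18 Affymetrix whole-transcript arrays, 3 arrays in each of 6 groups. Bone marrow adipocytes of 6, 14 and 18 months were compared with epididymal adipocytes of 6, 14 and 18 months, which the sample labels call peripheral adipocytes. All mice were male C57BL/6J on standard chow, with 6 to 10 animals in a group, and each array held a pooled RNA preparation. Marrow was flushed from femurs and tibias, its red cells were lysed and the floating cells were taken, whereas epididymal fat was digested with collagenase before flotation. No surface marker was used to sort the cells, and both depots came from the same mice.

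Brown adipocytes burn fuel to make heat: noradrenaline raises cyclic AMP, fatty acids are released, and the uncoupling protein UCP1 lets protons leak back across the inner mitochondrial membrane. Beige adipocytes are cells in white depots that can take on this program when stimulated. The program needs transcriptional regulators such as PRDM16, local activation of thyroid hormone by the deiodinase DIO2, and a large mitochondrial capacity, and epididymal fat is known as a depot with little of it.

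The promoters of 5 genes are shown because their genes bracket the findings in the values as deposited: Ucp1 with no depot or age difference past the test, Ucp3 lower in bone marrow, Dio2 higher in bone marrow, and Cox7a1 and Otop1 higher in epididymal adipocytes of 18 months. Each run is the 250 bases before the start site in RefSeq (build GRCm38.p6), read 5′ to 3′ on the gene's strand. They lie at chr8:83290098-83290347 (plus strand) for Ucp1, chr7:100472741-100472990 (plus) for Ucp3, chr12:90739039-90739288 (minus) for Dio2, chr7:30183921-30184170 (plus) for Cox7a1 and chr5:38277154-38277403 (plus) for Otop1. Capitals mark a match, on either strand, to 1 of 3 searched motifs: the cyclic AMP response element TGACGTCA, the nuclear receptor core hexamer AGGTCA, or the TATA box TATAAA.
Ucp1: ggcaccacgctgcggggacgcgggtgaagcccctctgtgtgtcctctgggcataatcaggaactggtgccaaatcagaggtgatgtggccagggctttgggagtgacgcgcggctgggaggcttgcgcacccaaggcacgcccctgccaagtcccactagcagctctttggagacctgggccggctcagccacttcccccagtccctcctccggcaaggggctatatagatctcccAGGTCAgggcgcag
Ucp3: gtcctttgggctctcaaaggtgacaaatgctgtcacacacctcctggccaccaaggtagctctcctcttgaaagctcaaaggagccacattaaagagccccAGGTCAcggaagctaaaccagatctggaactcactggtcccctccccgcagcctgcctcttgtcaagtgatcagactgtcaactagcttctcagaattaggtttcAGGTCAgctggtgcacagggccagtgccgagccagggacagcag
Dio2: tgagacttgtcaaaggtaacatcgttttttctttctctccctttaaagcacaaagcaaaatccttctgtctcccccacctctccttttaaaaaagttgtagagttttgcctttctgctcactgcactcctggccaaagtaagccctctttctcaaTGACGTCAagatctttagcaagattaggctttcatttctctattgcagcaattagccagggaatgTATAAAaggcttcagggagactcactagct
Cox7a1: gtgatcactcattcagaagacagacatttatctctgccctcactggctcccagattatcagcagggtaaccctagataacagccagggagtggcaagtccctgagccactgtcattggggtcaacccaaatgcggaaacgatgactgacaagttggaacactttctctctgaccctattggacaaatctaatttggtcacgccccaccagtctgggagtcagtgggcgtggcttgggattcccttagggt
Otop1: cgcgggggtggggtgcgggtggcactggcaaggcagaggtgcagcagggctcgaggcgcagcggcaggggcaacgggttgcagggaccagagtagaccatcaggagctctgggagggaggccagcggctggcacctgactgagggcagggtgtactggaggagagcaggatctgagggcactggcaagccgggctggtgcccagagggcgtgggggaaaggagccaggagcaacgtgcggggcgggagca
Windows of 7 of the 10 genes were searched (these 5, Prdm16 and Cox8b). No window was searched for Cidea, Elovl3 and Kcnk3, so the motif results do not cover these genes. TGACGTCA occurred in the Dio2 window, with its first base at -95 from the start site, and in 1.55% of 32851 RefSeq windows of this length. A TATA box stood at -30 in the same window, against 12.4% of all windows. AGGTCA occurred at -14 in Ucp1 and at -149 and -44 in Ucp3, against 14.0% of all windows. No searched motif was found in the windows of Prdm16, Cox8b, Cox7a1 and Otop1, and the direct repeat AGGTCANAGGTCA, which contains the hexamer and occurred in 0.0335% of all windows, was found in none of the 7. The bases G and C made up 70.0% of the Otop1 window, 64.8% of the Ucp1 window and 41.6% of the Dio2 window, against a median of 52.4% over all windows.

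The samples labelled as adipocytes differed in their marker genes between the depots. All 18 mature adipocyte markers measured were lower in the marrow cells past the 2-fold limit. Their mean log2 value was 6.29 to 7.0 on bone marrow arrays against 11.87 to 12.38 on epididymal arrays. All 13 neutrophil markers were higher in bone marrow, at 11.5 to 12.19 on its arrays against 5.08 to 8.74 on epididymal arrays, and all 7 erythroid markers were higher too, at 10.15 to 11.23 on bone marrow arrays against 5.94 to 7.61 on epididymal arrays. Epididymal array 1 of 6 months stood apart from its group, with a neutrophil list mean of 8.74 against 5.56 and 5.46, and bone marrow array 1 of 6 months had the lowest quality weight (0.187) of the 18. In bulk RNA of this kind, fewer adipocytes and less of a transcript per adipocyte cannot be told apart, and this holds for every depot difference below. Where a gene is higher in bone marrow, RNA of adipocytes and RNA of other cells cannot be told apart either. The plot of marker lists shows these levels array by array.

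**Figure D1:**
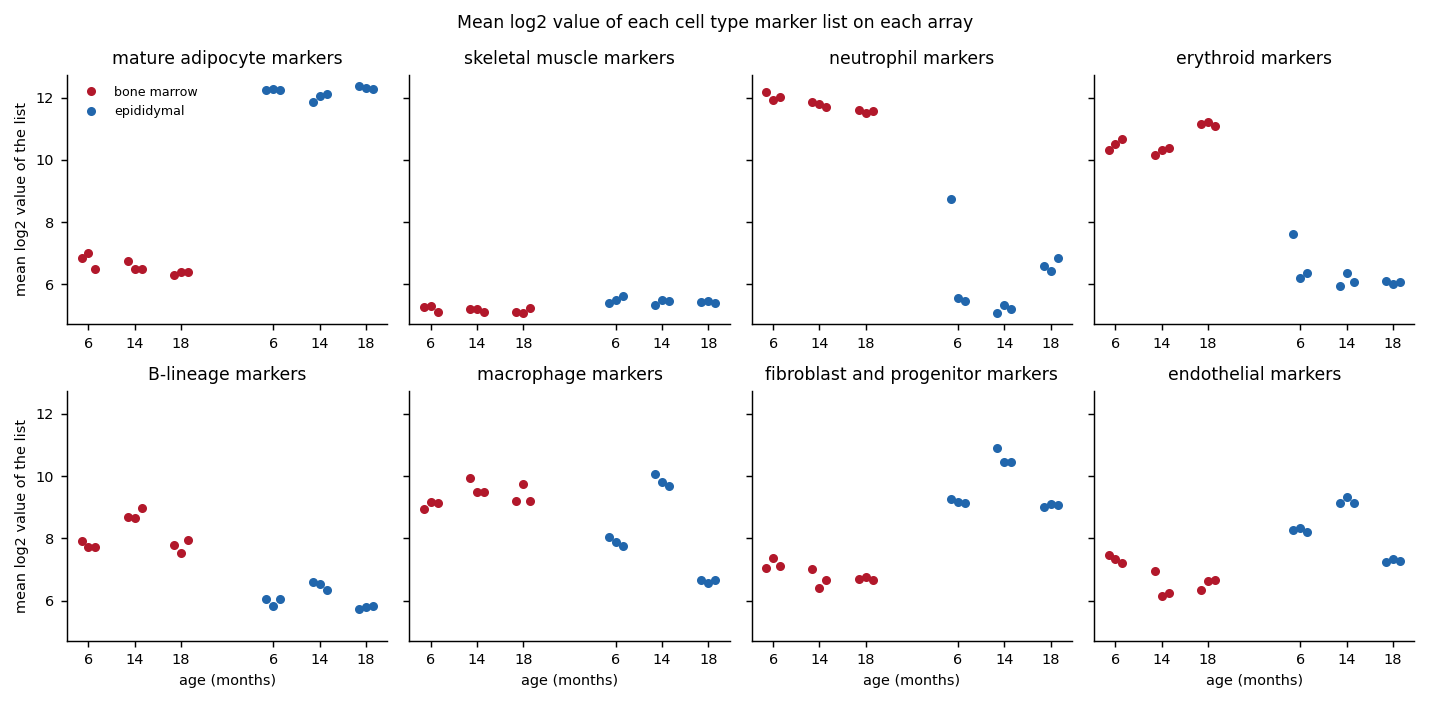
Mean log2 value of each cell type marker list (y axis) on each array, by age in months (x axis), with bone marrow in red at the left of each panel and epididymal in blue at the right. Mature adipocyte markers lie between 6.29 and 7.0 on bone marrow arrays and between 11.87 and 12.38 on epididymal arrays, while skeletal muscle markers lie between 5.08 and 5.3 on bone marrow arrays and between 5.33 and 5.64 on epididymal arrays.

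Between depots, 5 of the 10 genes were lower in bone marrow adipocytes with a 2-fold difference or more and an adjusted p under 0.05 over the 3 ages (Ucp3, Cidea, Cox8b, Cox7a1 and Kcnk3), where 11.6% of all 23410 probe sets tested were lower by that rule. By the same rule limma called 0 genes higher (background 10.2%), while 1, Dio2, was higher at an unadjusted p under 0.05 and in an ordinary analysis of variance with no fold limit. For counts at an unadjusted p or in an ordinary analysis of variance, here and below, no background was counted. Without the fold limit, 7 were lower (Prdm16 and Otop1 in addition; background 31.2%) and 1, Dio2, was higher (background 26.9%). The median log2 difference of the 10 genes was -1.08, against -0.02 over all probe sets tested. For 6 of them (Ucp3, Cidea, Cox8b, Cox7a1, Otop1 and Kcnk3) the highest of 9 bone marrow arrays was under the lowest of 9 epididymal arrays, as was so for 15.3% of probe sets. The reverse held for 0 of the 10 and for 12.4% of probe sets.

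Rescaling by a constant for each array moved the depot difference of all genes alike. When the arrays were rescaled so that 57 ribosomal protein genes had an equal mean (ribosomal scaling), the depot differences of all probe sets moved by -0.69, which turns the sign of any difference between 0 and 0.69. Quantile normalization repeated and median centring moved the median by -0.05 and 0.07, with 7 genes lower and 1 higher without a fold limit under both. Under ribosomal scaling the genes lower by 2-fold numbered 7 (background 26.0%), with Prdm16 and Otop1 in addition. Without the fold limit, 9 were lower and 0 higher under that scaling.

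**Figure D2:**
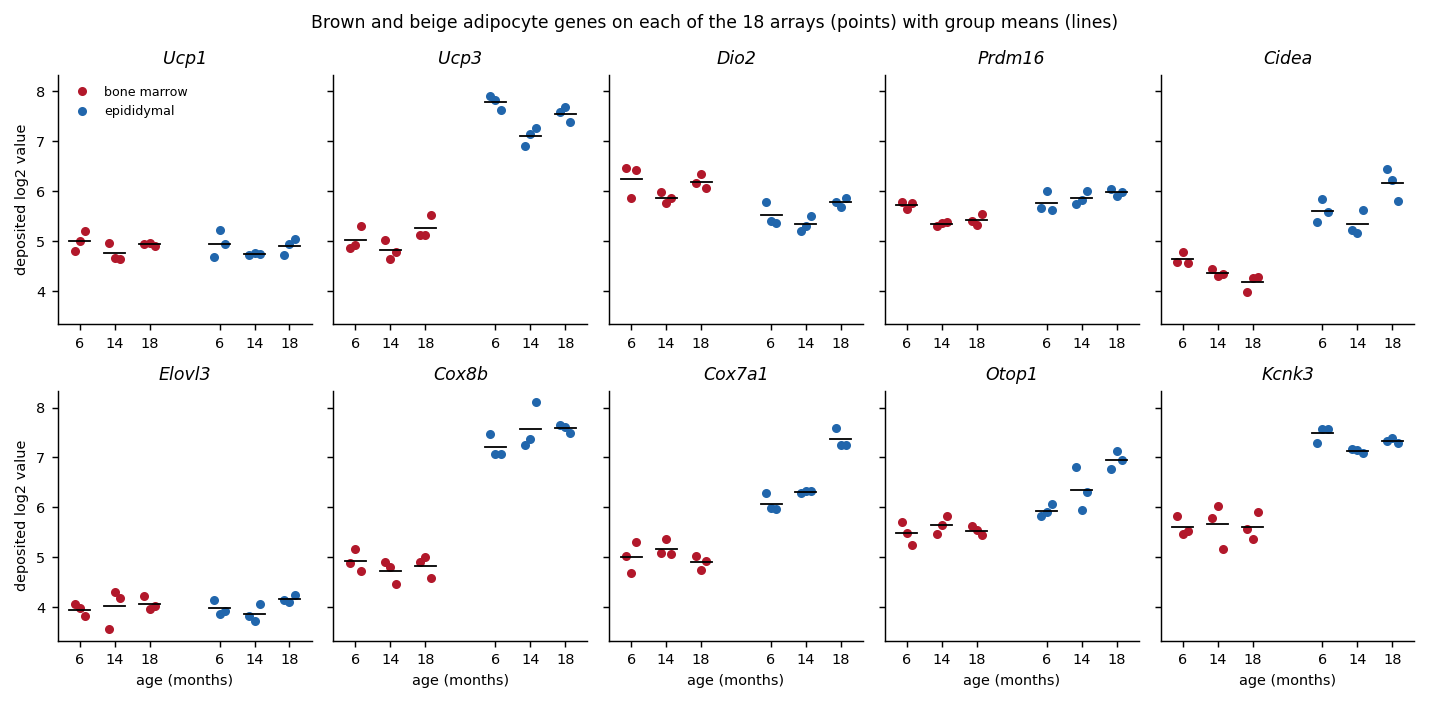
Deposited log2 value (y axis) of each gene on each of the 18 arrays, by age in months (x axis), with bone marrow in red at the left of each panel and epididymal in blue at the right. Points are arrays and lines are group means. Cox8b lies between 4.46 and 5.16 on bone marrow arrays and between 7.06 and 8.11 on epididymal arrays, whereas the 2 depots overlap for Ucp1 and Elovl3.

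Ucp1, the uncoupling protein that defines brown fat, had a similar low range in both depots. On bone marrow arrays it measured 4.81, 5.00 and 5.21 at 6 months, 4.96, 4.66 and 4.65 at 14 months, and 4.94, 4.97 and 4.91 at 18 months. On epididymal arrays it measured 4.68, 5.22 and 4.94 at 6 months, 4.73, 4.77 and 4.75 at 14 months, and 4.73, 4.94 and 5.04 at 18 months. The arrays of the depots overlapped at every age, and each neighbouring pair in the order of the 6 group means overlapped. The difference over the ages was 0.04 (SE 0.08, 95% confidence interval -0.13 to 0.205, adjusted p = 0.735), so a gap as large as 2-fold lay outside the interval, and under ribosomal scaling the difference was -0.65 (adjusted p = 3.25e-06). The largest change with age was -0.25 (SE 0.14) in bone marrow at 14 against 6 months and did not pass (adjusted p = 0.315). As a guide to the low end of the scale, 1205 probe sets of olfactory and vomeronasal receptors had a 95th percentile of 4.77 to 5.12 on the arrays. Ucp1 exceeded that percentile on 4 of 9 bone marrow arrays and on 3 of 9 epididymal arrays. Differences of genes in this range can be understated, and probe sets differ in their own background, so this is no call of absence. With depot means removed, the genes most like Ucp1 over the 18 arrays were Olfr1049 (r = 0.81), Teddm1a (r = 0.81) and Elapor2 (r = 0.79).

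Ucp3, a related mitochondrial carrier found in brown fat and skeletal muscle, was lower in bone marrow at every age. It measured 4.86, 4.93 and 5.3 at 6 months, 5.03, 4.64 and 4.78 at 14 months, and 5.12, 5.12 and 5.53 at 18 months in bone marrow. In epididymal adipocytes it measured 7.91, 7.82 and 7.62 at 6 months, 6.91, 7.14 and 7.26 at 14 months, and 7.58, 7.68 and 7.39 at 18 months. The lowest epididymal array was above the highest bone marrow array. Ucp3 exceeded the 95th percentile of the receptor probe sets on 6 of 9 bone marrow arrays, so the fold may be understated. The difference was -2.44 over the ages (SE 0.09, 5.44-fold, adjusted p = 7.74e-15), and by age it was -2.75 at 6 months, -2.28 at 14 months and -2.30 at 18 months. In order of group means, bone marrow 14 months overlapped 6 months and 6 months overlapped 18 months, while bone marrow 14 and 18 months were apart. Then came epididymal 14 months, apart from its neighbours, and epididymal 18 and 6 months, which overlapped. The other family members measured differed less: Slc25a27 by -0.58 (SE 0.09), Slc25a30 by -0.56 (SE 0.07) and Slc25a14 by -0.29 (SE 0.085). Ucp2 was not analysed here. With depot means removed, the 3 genes whose values over the 18 arrays were most like those of Ucp3 were Ppa1 (r = 0.90), Txn2 (r = 0.90) and Hdgf (r = 0.87).

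Skeletal muscle also uses Ucp3, Cox8b and Cox7a1, so its markers are given beside them. Of 21 muscle markers, 2 were lower in bone marrow by 2-fold and 0 higher, and the mean over the list was 5.08 to 5.3 on bone marrow arrays against 5.33 to 5.64 on epididymal arrays. The 2 were Myl1, a myosin light chain (4.09 to 5.33 in bone marrow against 7.21 to 8.54 in epididymal adipocytes), and Acta1, skeletal actin (6.58 to 7.25 in bone marrow against 7.21 to 8.49 in epididymal adipocytes). Among markers that overlapped between the depots, Ckm, muscle creatine kinase, ranged over 5.68 to 6.18 in bone marrow and 5.54 to 6.12 in epididymal adipocytes. Myh4, a fast myosin heavy chain, ranged over 4.13 to 4.48 in bone marrow and 4.10 to 4.57 in epididymal adipocytes. Summed over the list, the log2 level was 9.7 to 10.04 on bone marrow arrays against 10.01 to 10.57 on epididymal arrays. The part of muscle RNA in the depot differences was not tested.

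Prdm16, a zinc finger regulator that steers cells to the brown fate, differed little between the depots at 6 months and was lower in bone marrow at the later ages. Its bone marrow values were 5.79, 5.64 and 5.77 at 6 months, 5.31, 5.36 and 5.38 at 14 months, and 5.4, 5.33 and 5.54 at 18 months. Its epididymal values were 5.67, 6.01 and 5.62 at 6 months, 5.75, 5.83 and 6.00 at 14 months, and 6.05, 5.90 and 5.98 at 18 months. The 3 bone marrow arrays of 6 months lay above the 6 older bone marrow arrays, and the depots overlapped at 6 months alone. The depot difference was -0.03 at 6 months (SE 0.115, adjusted p = 0.848), -0.51 at 14 months (adjusted p = 0.00111) and -0.55 at 18 months (adjusted p = 4.98e-04). Over the ages it was -0.36 (SE 0.07, 1.29-fold, adjusted p = 8.75e-05). Mecom, its nearest relative, was also lower in bone marrow, by 0.59 on the log2 scale (SE 0.06, adjusted p = 8.07e-08). The genes most like Prdm16 over the 18 arrays with depot means removed were Agpat4 (r = 0.80), Ndrg2 (r = 0.80) and Gstt1 (r = 0.78).

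Dio2, which converts thyroxine to the active thyroid hormone inside the cell, was the gene of the 10 that was higher in bone marrow in the values as deposited. It measured 6.46, 5.87 and 6.42 at 6 months, 5.99, 5.76 and 5.86 at 14 months, and 6.16, 6.35 and 6.07 at 18 months in bone marrow. Epididymal values were 5.78, 5.41 and 5.37 at 6 months, 5.21, 5.3 and 5.50 at 14 months, and 5.79, 5.69 and 5.87 at 18 months. Within each age the bone marrow arrays were above the epididymal ones, but the depots overlapped across ages. The difference over the ages was 0.56 (SE 0.09, 1.47-fold, adjusted p = 1.47e-05), and it passed as higher with quantile normalization repeated and with median centring. Under ribosomal scaling it was -0.13 and did not pass (adjusted p = 0.239). By age it was 0.73 at 6 months, 0.54 at 14 months and 0.41 at 18 months (adjusted p = 0.0338), and the last did not pass without array 1 or 2 of either depot at 18 months (adjusted p between 0.0591 and 0.136). Dio1 and Dio3, the other deiodinases, differed by -0.01 (SE 0.08, adjusted p = 0.906) and -0.14 (SE 0.095, adjusted p = 0.213). Most like Dio2 were Ilf2 (r = 0.90), Rwdd4a (r = 0.90) and Lipo3 (r = 0.90).

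Cidea, a lipid droplet protein of brown adipocytes, was lower in bone marrow, and more so at 18 months. In bone marrow it measured 4.59, 4.79 and 4.56 at 6 months, 4.45, 4.30 and 4.34 at 14 months, and 3.99, 4.26 and 4.28 at 18 months. In epididymal adipocytes it measured 5.39, 5.84 and 5.58 at 6 months, 5.23, 5.16 and 5.62 at 14 months, and 6.45, 6.22 and 5.81 at 18 months. No array of the depots overlapped, and on the bone marrow side no 2 ages overlapped. The difference was -1.30 over the ages (SE 0.09, 2.47-fold, adjusted p = 2.82e-10). It was -0.95 at 6 months, -0.98 at 14 months and -1.98 at 18 months (SE 0.16 each). All 9 bone marrow values were at or below the 95th percentile of the receptor probe sets, so the fold may be understated. Of its family, Cidec, which builds the large droplets of white adipocytes, differed by -7.47 (SE 0.11, adjusted p = 4.17e-20), and Cideb by -0.03 (SE 0.08, adjusted p = 0.785). Most like Cidea were Rtn2 (r = 0.89), Acads (r = 0.86) and Btd (r = 0.85).

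Elovl3, an elongase of very long fatty acids that rises in brown fat in the cold, ranged over 3.56 to 4.30 on bone marrow arrays and 3.72 to 4.24 on epididymal arrays. All 18 values were below the 90th percentile of the receptor probe sets. The depot difference was 0.01 (SE 0.09, 95% confidence interval -0.185 to 0.20, adjusted p = 0.949), and -0.68 under ribosomal scaling (adjusted p = 1.68e-06). All neighbours in the order of its 6 group means overlapped, although the epididymal arrays of 14 months lay below those of 18 months. Other elongases differed in opposite directions. Elovl6, which extends palmitate, differed by -2.54 (SE 0.09, adjusted p = 6.17e-15) and Elovl7 by 2.21 (SE 0.115, adjusted p = 1.66e-12), whereas Elovl2 and Elovl4 did not pass. Epididymal means of Elovl2 and Elovl4 lay near the low end of the scale (3.98 and 4.93 at 6 months), so their differences may be understated. Most like Elovl3 were Atp1a4 (r = 0.865), Olfr368 (r = 0.76) and Plekhh3 (r = 0.76).

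Cox8b and Cox7a1, isoforms of cytochrome c oxidase subunits used in brown fat, heart and muscle, were both lower in bone marrow, Cox8b with the largest depot difference of the 10 over the ages in the values as deposited. Cox8b measured 4.88, 5.16 and 4.72 at 6 months, 4.90, 4.81 and 4.46 at 14 months, and 4.90, 5.01 and 4.59 at 18 months in bone marrow. In epididymal adipocytes it measured 7.47, 7.07 and 7.06 at 6 months, 7.25, 7.37 and 8.11 at 14 months, and 7.66, 7.61 and 7.50 at 18 months. The lowest epididymal array (7.06) was above the highest bone marrow array (5.16). Cox8b exceeded the 95th percentile of the receptor probe sets on 3 of 9 bone marrow arrays, so the fold may be understated. Its difference was -2.63 over the ages (SE 0.11, 6.19-fold, adjusted p = 9.95e-14), and -2.28, -2.85 and -2.76 at 6, 14 and 18 months. Most like Cox8b were Dhrs13 (r = 0.75), Ei24 (r = 0.74) and Lrrc20 (r = 0.74).

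Cox7a1 measured 5.03, 4.69 and 5.3 at 6 months, 5.09, 5.36 and 5.07 at 14 months, and 5.02, 4.75 and 4.92 at 18 months in bone marrow. In epididymal adipocytes it measured 6.29, 5.98 and 5.96 at 6 months, 6.28, 6.33 and 6.32 at 14 months, and 7.60, 7.26 and 7.25 at 18 months. The epididymal arrays of 18 months stood above every other array. Cox7a1 exceeded the 95th percentile of the receptor probe sets on 6 of 9 bone marrow arrays, so the fold may be understated. In bone marrow, 6 months overlapped both other ages, and 18 months lay below 14 months. The difference was -1.56 over the ages (SE 0.09, 2.95-fold, adjusted p = 4.72e-12), with -1.07 at 6 months, -1.14 at 14 months and -2.47 at 18 months (SE 0.15 each). The call of 2-fold at 6 months was lost without bone marrow array 2 or without epididymal array 1 (-0.96 to -0.91, adjusted p under the threshold in both). Most like Cox7a1 were Atp10a (r = 0.93), Map1a (r = 0.93) and Sycp3 (r = 0.92).

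The ubiquitous partners of these subunits differed less. Cox8a differed by -0.80 (SE 0.13, adjusted p = 2.94e-05) and Cox7a2 by -0.97 (SE 0.09, adjusted p = 9.14e-09). Of 14 cytochrome c oxidase genes measured, 2 were lower by 2-fold, namely Cox8b and Cox7a1, and 1 was higher, Cox6b2, an isoform known from testis (1.51, SE 0.09, adjusted p = 1.83e-11). The median over the 14 was -0.40. The plot of gene families shows 6 of these families member by member.

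**Figure D3:**
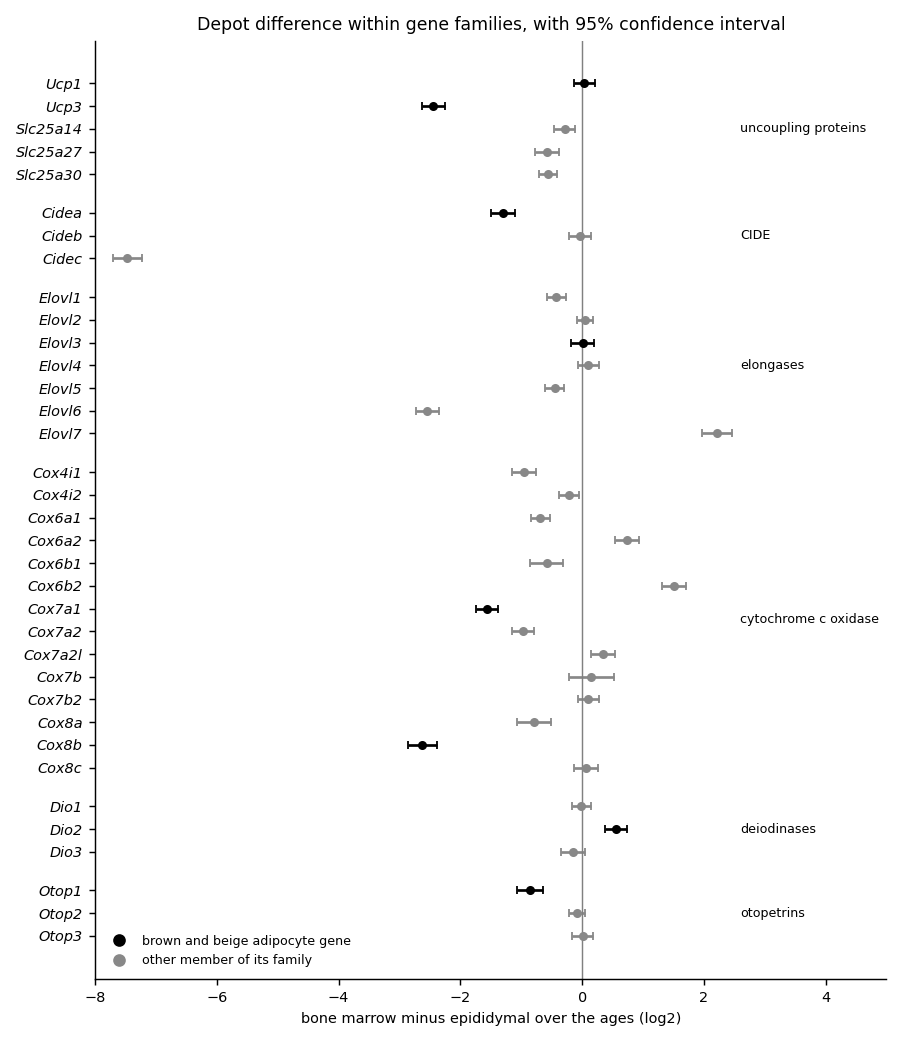
Difference of bone marrow minus epididymal over the ages on the log2 scale (x axis) for each measured gene of 6 families (y axis), with bars of the 95% confidence interval. Black points are the brown and beige adipocyte genes and grey points are their relatives. Cidec at -7.47 and Elovl6 at -2.54 lie far to the left of most relatives, while Cox8b and Cox7a1 lie to the left of their partners Cox8a and Cox7a2.

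Kcnk3, a potassium channel that sets the resting potential of brown adipocytes, was lower in bone marrow at all ages. It measured 5.83, 5.47 and 5.52 at 6 months, 5.79, 6.03 and 5.17 at 14 months, and 5.56, 5.37 and 5.91 at 18 months in bone marrow. Epididymal values were 7.29, 7.58 and 7.58 at 6 months, 7.16, 7.14 and 7.09 at 14 months, and 7.34, 7.39 and 7.29 at 18 months. All epididymal arrays were above all bone marrow arrays, and the epididymal arrays of 14 months were the lowest of that depot, as for Ucp3 and for 9.79% of probe sets. The difference was -1.69 over the ages (SE 0.10, 3.23-fold, adjusted p = 2.11e-11), and -1.875, -1.47 and -1.72 at 6, 14 and 18 months (SE 0.18 each). Of 14 channels of its family, 1 other passed at 2-fold, Kcnk6, which was higher (1.13, SE 0.11, adjusted p = 2.82e-08). Kcnk9, its closest relative, differed by -0.125 (SE 0.11, adjusted p = 0.377). Epididymal means of Kcnk9 lay near the low end of the scale (4.81 at 6 and 4.73 at 18 months), so its difference may be understated. Most like Kcnk3 were Mlxipl (r = 0.85), Card14 (r = 0.83) and Insl5 (r = 0.82).

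Otop1, a proton channel found in brown and beige adipocytes, was lower in bone marrow, and more so at 18 months. In bone marrow it measured 5.71, 5.48 and 5.25 at 6 months, 5.47, 5.64 and 5.83 at 14 months, and 5.62, 5.55 and 5.44 at 18 months. In epididymal adipocytes it measured 5.83, 5.90 and 6.07 at 6 months, 6.80, 5.95 and 6.31 at 14 months, and 6.76, 7.12 and 6.94 at 18 months. The depots did not overlap, although their closest arrays both rounded to 5.83. The difference was -0.85 over the ages (SE 0.10, 1.81-fold, adjusted p = 3.84e-07), with -0.46 at 6 months (adjusted p = 0.0392), -0.70 at 14 months and -1.40 at 18 months. The call at 6 months was lost without array 2 or 3 of either depot at that age (adjusted p between 0.0700 and 0.162) and in an ordinary analysis of variance. Otop2 and Otop3 differed by -0.09 (SE 0.06, adjusted p = 0.243) and 0.01 (SE 0.08, adjusted p = 0.942). Most like Otop1 were Rarb (r = 0.89), Phospho2 (r = 0.88) and Gask1b (r = 0.87).

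At single ages, 4 of the 10 genes were lower in bone marrow by 2-fold at 6 months (Ucp3, Cox8b, Cox7a1 and Kcnk3; background 11.8%) and the same 4 at 14 months (background 11.5%). At 18 months 6 were lower, with Cidea and Otop1 in addition (background 12.9%). By limma 0 were higher by 2-fold at any age, where 11.4%, 9.91% and 10.9% of probe sets were at 6, 14 and 18 months. Without the fold limit, 6 genes were lower at 6 months (Cidea and Otop1 in addition; background 24.3%), 7 at 14 months (Prdm16 too; background 24.2%) and the same 7 at 18 months (background 25.5%). Dio2 was then the 1 gene higher at each age in the values as deposited (background 22.0%, 21.6% and 21.6%), by an unadjusted p under 0.05 as well, and in an ordinary analysis of variance at 6 and 14 months. Elovl3 passed at 14 months without bone marrow array 1 of that age (0.38, adjusted p = 0.0304). Cidea lay just under the fold limit at 6 and 14 months, and it passed without bone marrow array 2 or epididymal array 1 at 6 months, and without bone marrow array 1, epididymal array 1 or epididymal array 2 at 14 months (-1.07 to -1.02).

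**Figure D4:**
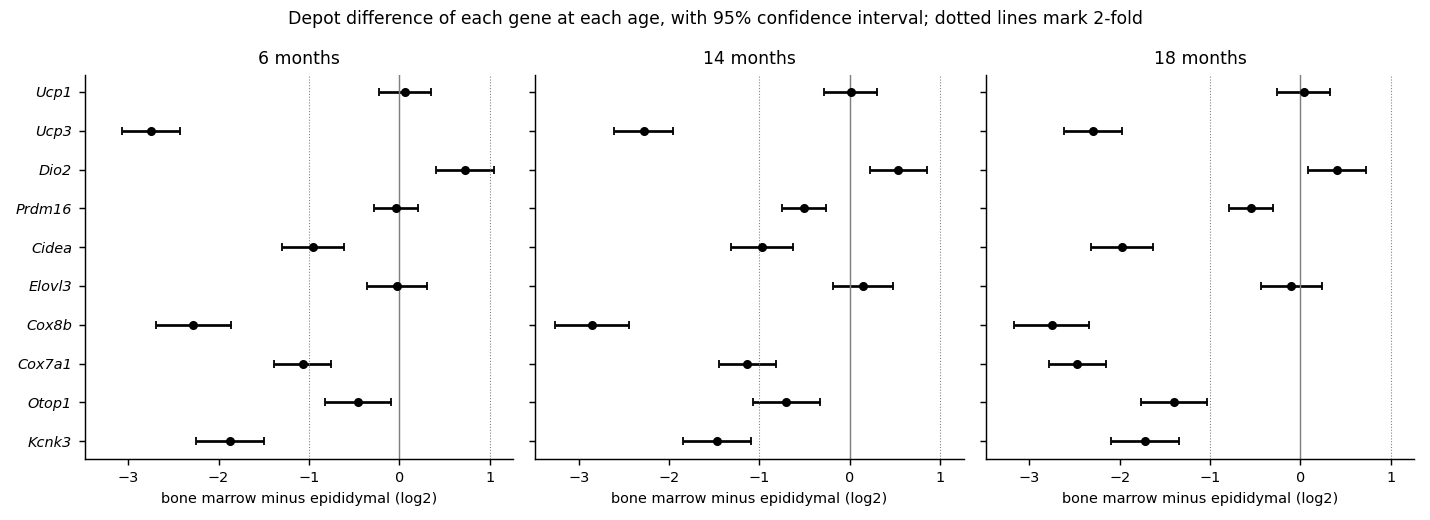
Difference of bone marrow minus epididymal on the log2 scale (x axis) for each gene (y axis) at 6, 14 and 18 months, with bars of the 95% confidence interval and dotted lines at 2-fold. Cidea, Cox7a1 and Otop1 lie farther left at 18 months (-1.98, -2.47 and -1.40) than at 6 months (-0.95, -1.07 and -0.46), while Ucp1 and Elovl3 lie near 0 in the values as deposited.

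With age, 3 of the 10 genes rose in epididymal adipocytes of 18 against 6 months: Cox7a1, Otop1 and Cidea, where 8.22% of probe sets rose. By limma 0 genes fell (background 8.01%), also at an unadjusted p under 0.05 and in an ordinary analysis of variance. Cox7a1 was higher by 1.29 (SE 0.15, 2.45-fold, adjusted p = 9.45e-06), and its 3 arrays of 18 months lay above the 6 younger epididymal arrays, as was so for 12.3% of probe sets. Otop1 was higher by 1.00 (SE 0.175, 2.00-fold, adjusted p = 6.72e-04), with the lowest array of 18 months (6.76) just under the highest of 14 months (6.80). Cidea was higher by 0.56 (SE 0.16, 1.47-fold, adjusted p = 0.0260), a call lost without array 1 or 3 of 6 months or array 1 or 2 of 18 months (0.409 to 0.547, adjusted p between 0.0793 and 0.160). It was also lost under ribosomal scaling (0.49, adjusted p = 0.0875), in an ordinary analysis of variance (adjusted p = 0.0509) and without the first array of 6 months of each depot (0.45, adjusted p = 0.0745), an alternative chosen after the data were seen. The other 7 genes did not pass, and their differences ran from -0.23 for Ucp3 to 0.39 for Cox8b. Cox8b passed with array weights (adjusted p = 0.0418) and with the compared groups alone (adjusted p = 0.0489), and Prdm16 with quantile normalization repeated (0.37, adjusted p = 0.0362).

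Against 14 months, 5 genes were higher in epididymal adipocytes of 18 months (background 11.7%), namely Cox7a1 (1.06, SE 0.15, adjusted p = 2.91e-05), Cidea (0.82, SE 0.16, adjusted p = 9.13e-04), Otop1 (0.59, adjusted p = 0.0188), Dio2 (0.45, adjusted p = 0.0359) and Ucp3 (0.45, adjusted p = 0.0411). None fell (0 by limma, also at an unadjusted p under 0.05 and in an ordinary analysis of variance; background 12.5%). Of the 5 calls, 3 did not hold when single arrays were left out, and those of Dio2 and Ucp3 were not made in an ordinary analysis of variance. Otop1 lost its call without epididymal array 2 or 3 of 14 months or array 2 of 18 months (adjusted p between 0.0545 and 0.136). Dio2 lost it without array 1 or 2 of 14 months or any array of 18 months (0.0551 to 0.131), and Ucp3 without bone marrow array 3 of 14 months, epididymal array 2 of 6 months, or array 1 or 2 of 14 or 18 months (0.0502 to 0.175). At 14 against 6 months 1 gene fell, Ucp3, by 0.68 on the log2 scale (SE 0.15, adjusted p = 0.00393; background 7.51% lower), and limma called 0 higher (background 10.2%). Of the 10, 1 rose at an unadjusted p under 0.05 (no background counted), Otop1, at 0.415 (adjusted p = 0.119). Otop1 passed without epididymal array 2 of 14 months (0.62, adjusted p = 0.0203), whereas in an ordinary analysis of variance 0 genes rose. By limma's F test over the 3 ages, 4 genes changed in epididymal adipocytes (Ucp3, Cidea, Cox7a1 and Otop1; background 31.0%), and Dio2 passed in addition without array 1 or 2 of bone marrow or array 1 of epididymal adipocytes at 6 months (adjusted p between 0.0268 and 0.0478).

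Markers of other cells moved in the same epididymal groups. At 18 against 6 months, 9 of 12 macrophage markers and 8 of 10 endothelial markers were lower (median -1.40 and -1.04), with macrophage list means of 6.55 to 6.66 at 18 months against 7.74 to 8.03 at 6 months. Of 18 mature adipocyte markers, 1 was higher and 1 lower, with list means of 12.29 to 12.38 at 18 months against 12.24 to 12.27 at 6 months, and of 21 muscle markers 1, Neb, was higher. Of 10 smooth muscle and mesothelial markers, 4 were lower and 1 higher at 18 against 6 months. At 14 against 6 months, 11 of 12 macrophage and 9 of 10 fibroblast and progenitor markers were higher (median 2.19 and 1.27). So were 7 of 10 endothelial, 7 of 10 smooth muscle and mesothelial and 5 of 9 B-lineage markers. Lower were 4 of 13 neutrophil, 2 of 7 erythroid and 3 of 18 mature adipocyte markers. The part of these cells in the changes of Cox7a1, Otop1, Cidea and Ucp3 was not tested.

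In bone marrow, 1 of the 10 genes passed between ages. Prdm16 was lower at 14 than at 6 months by 0.39 on the log2 scale (SE 0.115, 1.31-fold, adjusted p = 0.0443; background 3.58% lower and 5.08% higher), and by 0.31 at 18 months (adjusted p = 0.108). The first call was narrow and was lost without any of 10 arrays: bone marrow arrays 1 and 3 of 6 months, 1, 2 and 3 of 14 months and 1 of 18 months, and epididymal arrays 2 of 14 months and 1, 2 and 3 of 18 months (-0.40 to -0.36, adjusted p between 0.0523 and 0.115). At 18 against 6 months limma called 0 genes (background 5.13% lower and 3.37% higher). An unadjusted p under 0.05 was reached by 2, Prdm16 and Cidea (-0.47, adjusted p = 0.0822), and 0 passed in an ordinary analysis of variance. These backgrounds are for limma's adjusted p, and none was counted at an unadjusted p. At 18 against 14 months limma also called 0 (background 8.23% lower and 4.75% higher), with an unadjusted p under 0.05 for 2, Ucp3 and Dio2, and 0 in an ordinary analysis of variance. Ucp3 passed there without bone marrow array 3 of 6 months or array 1 of 14 months (0.43 to 0.54, adjusted p = 0.0480 and 0.0490). Dio2 at 14 against 6 months was -0.38 (adjusted p = 0.141) and passed without bone marrow array 2 of 6 months (-0.57, adjusted p = 0.0160). The F test over the 3 ages called Prdm16 alone (1 of 10, adjusted p = 0.0477; background 18.5%). That call was lost without any of 13 of the 18 arrays, the other 5 being bone marrow arrays 2 of 6 months and 3 of 18 months and epididymal arrays 2 and 3 of 6 months and 3 of 14 months (adjusted p between 0.0508 and 0.120), and Dio2 passed it without bone marrow array 2 of 6 months (adjusted p = 0.0202).

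Cidea also had its 3 bone marrow arrays of 6 months above the 6 older ones, as Prdm16 did, and 3.57% of probe sets did so. Beside these values, 7 of 10 endothelial markers were lower in bone marrow at 14 and at 18 months than at 6 months, and 1 and 4 of 18 mature adipocyte markers were lower, Adipoq at 14 months and Lep, Fabp4, Pnpla2 and Dgat2 at 18 months. At 14 months, 7 of 9 B-lineage markers (median 0.99) and 5 of 12 macrophage markers (median 0.60) were higher than at 6 months, and 3 of 10 fibroblast and progenitor markers were lower (median -0.46). The part of these cells in the values of Prdm16 and Cidea was not tested.

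**Figure D5:**
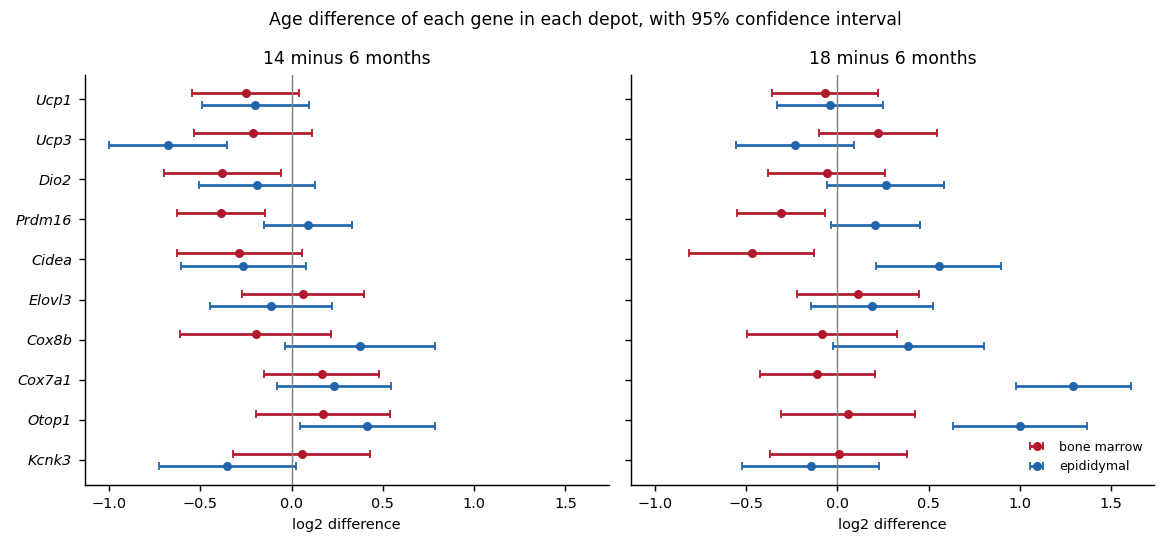
Log2 difference of 14 minus 6 months (left) and 18 minus 6 months (right) on the x axis for each gene (y axis), in bone marrow (red) and epididymal adipocytes (blue), with bars of the 95% confidence interval. At 18 months the epididymal points of Cox7a1 (1.29) and Otop1 (1.00) lie to the right of their bone marrow points (-0.11 and 0.06).

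Age changes differed between the depots for 4 of the 10 genes by limma's F test of the interaction of depot and age (background 20.4%). These were Cox7a1 (adjusted p = 1.05e-04), Cidea (adjusted p = 0.00404), Otop1 (adjusted p = 0.0238) and Prdm16 (adjusted p = 0.0460). At 18 against 6 months, the bone marrow change minus the epididymal change was -1.40 for Cox7a1 (SE 0.21, adjusted p = 4.47e-04), -1.02 for Cidea (SE 0.23, adjusted p = 0.00995) and -0.94 for Otop1 (SE 0.25, adjusted p = 0.0242; background 5.02% lower and 3.49% higher). Under ribosomal scaling the differences of Cidea (-0.82, adjusted p = 0.0635) and Otop1 (-0.735, adjusted p = 0.109) did not pass. That of Otop1 also did not pass in an ordinary analysis of variance (adjusted p = 0.0595), with the replicate number within age as a block (adjusted p = 0.0569), or without the first array of 6 months of each depot (-0.775, adjusted p = 0.0708). Prdm16 (-0.515, adjusted p = 0.0585) passed with quantile normalization repeated (-0.63, adjusted p = 0.0232), in an ordinary analysis of variance (adjusted p = 0.0498) and without array 2 of 6 months of either depot (-0.64 to -0.56, adjusted p between 0.0219 and 0.0485). At 14 against 6 months limma called 0 (background 6.53% lower and 5.07% higher). There 2 genes, Prdm16 and Ucp3, had an unadjusted p under 0.05 (no background counted), and an ordinary analysis of variance called 0. Prdm16 passed there without epididymal array 2 of 6 months (-0.60, adjusted p = 0.0194), and Ucp3 under ribosomal scaling (0.76, adjusted p = 0.0434). Otop1 lost its F test without bone marrow array 3 or epididymal array 2 of 18 months (0.0653 and 0.0779), and its difference at 18 months without these or epididymal array 2 of 6 months (adjusted p between 0.0551 and 0.0740). Prdm16 lost its F test without any of 14 of the 18 arrays (adjusted p between 0.0599 and 0.135), the other 4 being bone marrow array 2 and epididymal array 2 of 6 months, bone marrow array 3 of 18 months and epididymal array 1 of 14 months. Cox7a1 and Cidea kept theirs without each array in turn. In bone marrow, Cidea exceeded the 95th percentile of the receptor probe sets on 0 of 9 arrays and Cox7a1 on 6 of 9. Their bone marrow changes may therefore be understated.

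The wider program was read from lists chosen with earlier results of these data known, and their counts at 2-fold stand beside 11.6% lower and 10.2% higher over all probe sets. The lists share genes, so their counts are not independent. Pparg, Aqp7, Gpd1, Lep and Retn are also among the mature adipocyte markers above, and Gpd2 is both an effector and a heat cycle gene. Of 23 regulators of the brown and beige program, 4 were lower in bone marrow by 2-fold and 5 higher (median -0.27). The largest differences were those of Plac8 (5.01, SE 0.17), Ebf2, a factor that opens brown genes with PPARγ (-3.12, SE 0.09), Pparg itself (-2.82, SE 0.10) and Hlx (1.98, SE 0.14). Of 14 genes that restrain the program, 4 were lower and 2 higher (median 0.03), led by Twist1 (-2.43, SE 0.115), Zfp423 (-2.30, SE 0.06), Nrip1 (-1.95, SE 0.08) and Rbl1 (1.72, SE 0.09). With age, Ppargc1a, the coactivator that drives mitochondrial genes, was higher at 18 than at 6 months in epididymal adipocytes (1.02, SE 0.14, adjusted p = 4.98e-05), as was Pparg (0.86, SE 0.18, adjusted p = 0.00253), while Irf4 (-1.85, SE 0.19, adjusted p = 2.97e-06) and Zfp516 (-0.48, SE 0.12, adjusted p = 0.00822) were lower. Of the 23, 3 were higher and 2 lower in that comparison (background 8.22% higher and 8.01% lower). There, 9 of 12 macrophage markers were lower too, and the part of other cells in the age values of these lists, Irf4 included, was not tested.

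Of 16 measured inputs to heat production, 8 were lower in bone marrow and 0 higher (median -0.996), and 10 of the 13 measured genes selective for white adipocytes were lower with 0 higher (median -4.39). The leading inputs were Klb, the co-receptor for FGF21 (-4.38, SE 0.12), Nrg4, a factor secreted by brown fat (-4.07, SE 0.07), Fgfr1 (-3.48, SE 0.08) and the thyroid hormone receptor Thrb (-2.56, SE 0.08). The leading white genes were Lep, leptin (-8.37, SE 0.12), Retn, resistin (-6.96, SE 0.13), Sncg (-6.79, SE 0.06) and Mest (-6.58, SE 0.12). The β-adrenergic receptors were not analysed here.

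Of 23 further effectors and markers of brown and beige fat, 6 were lower and 2 higher (median -0.07). Aqp7, a glycerol channel also listed as a mature adipocyte marker, differed by -6.53 (SE 0.13). Slc36a2, an amino acid carrier on the surface of brown adipocytes, differed by -5.10 (SE 0.10), Pdk4 by -4.60 (SE 0.10) and Slc25a20, the carnitine carrier, by -1.82 (SE 0.14). Of 16 genes of heat cycles that do not need UCP1, 5 were lower and 2 higher (median -0.11). Gpd1, also listed as a mature adipocyte marker, differed by -5.31 (SE 0.16). Gatm, which makes the precursor of creatine, differed by 3.55 (SE 0.17), Gamt, which completes creatine, by -2.86 (SE 0.10) and Pm20d1 by -2.56 (SE 0.08). In epididymal adipocytes of 18 against 6 months, Pm20d1 (1.13, SE 0.13, adjusted p = 1.34e-05), Ryr2 (0.76, SE 0.12, adjusted p = 2.66e-04) and Slc36a2 (0.62, SE 0.18, adjusted p = 0.0234) rose, while Slc6a8 (-0.94, SE 0.12, adjusted p = 2.41e-05) and Ckmt1 (-0.50, SE 0.14, adjusted p = 0.0220) fell. Of the 16 heat cycle genes 2 rose and 2 fell, and of the 23 effectors 3 rose and 0 fell, where 8.22% of probe sets rose and 8.01% fell.

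Among the 10 genes themselves, the values of Cox7a1 and Otop1 over the 18 arrays were most alike with depot means removed (r = 0.69), followed by Cidea and Cox7a1 (r = 0.59) and Prdm16 and Cidea (r = 0.59). Ucp1 and Elovl3 were the least alike (r = -0.37). These correlations describe 18 arrays that share depot, age group and normalization, and no test was made of them. The genes named above as most like each of the 10 were picked as the highest r among all genes measured, and they were not tested either.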

How the data were processed

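RNA of bone marrow and epididymal adipocytes was measured on 18 arrays, 3 pooled preparations for each of 6 groups. The log2 values were deposited by the authors, whose methods name gcRMA, quantile normalization and a log2 step in Partek software. The submitters' processing notes also name RMA, and which of these background corrections made the values is not settled, which bears on values near the low end. The table holds 35556 probe sets, with array medians of 5.33 to 5.65, and 0 of its columns were left out. Of the probe sets, 23410 name a gene (21789 a single gene, 1621 several) in the platform annotation. A mean was fitted for each group to the 23410 with limma 3.58.1 in R 4.3.3 (lmFit, contrasts, eBayes), with p-values adjusted by Benjamini-Hochberg over all of them. A depot call needed an adjusted p under 0.05 and a 2-fold difference, an age or interaction call the adjusted p alone. The fit was tested on simulated data. The number of arrays limits the precision. Samples are pools of animals, so p-values measure the spread between pools.

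The 10 genes and all lists were chosen with earlier results of these data known. Named were the 10 genes, for each the 3 genes outside the 10 with the highest Pearson r over the 18 arrays after depot means were removed, up to 4 genes of each list with the largest depot difference, and paralogues. Names and age values of other list genes were chosen after they were seen. Promoters came from RefSeq (GRCm38.p6). Figures were drawn with matplotlib 3.10.9 in Python 3.11.15. Alternatives were the probe sets tested, a filter on low values, 3 scalings, 2 variance models, array weights, the compared groups alone, replicate blocks, other fold limits, and leaving out arrays.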

Additional observations from a re-analysis of the deposited data

Results flagged for a closer look

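These results stood out because the change with age differed between the depots in a test of that difference. Against 6 months, the change to 18 months in bone marrow minus that in epididymal adipocytes was -1.40 for Cox7a1 (SE 0.21), -1.02 for Cidea (SE 0.23) and -0.94 for Otop1 (SE 0.25), with limma adjusted p = 4.47e-04, 0.00995 and 0.0242. Under ribosomal scaling those of Cidea and Otop1 did not pass (adjusted p = 0.0635 and 0.109), and that of Otop1 did not pass in 3 other alternatives (adjusted p between 0.0569 and 0.0708). The F test of the interaction of depot and age over both older ages gave F = 28.0 for Cox7a1, 12.9 for Cidea, 7.79 for Otop1 and 6.17 for Prdm16, where 20.4% of all probe sets passed. Bone marrow values of Cidea and Cox7a1 lay near the low end of the scale, so their bone marrow changes may be understated.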

How the results depend on the processing

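The 5 genes lower in bone marrow were called under every alternative run, with 7 under ribosomal scaling (background 26.0%). Without a fold limit, 1 gene was higher in the values as deposited (Dio2; background 26.9%). Ribosomal scaling moves all depot differences by -0.69, and by this shift those of Ucp1 (-0.65), Dio2 (-0.13) and Elovl3 (-0.68) were below 0. As deposited, Ucp1 and Elovl3 were not called, and the value of Dio2 under this scaling was not. The single bone marrow call of 14 against 6 months (Prdm16) became 0 over all probe sets, with quantile normalization repeated, median centring, ribosomal scaling, the trend and robust prior, array weights, the compared groups alone, a fold limit of 2, and without the first array of 6 months of each depot, an alternative chosen after the data were seen. Leaving out single arrays gave 0 to 2. For epididymal adipocytes of 14 against 6 months these gave 1 to 2, and a fold limit of 2 gave 0. The interaction count of 4 became 2 under ribosomal scaling, and 2 to 4 without single arrays. The cause was not tested.

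The same replicate numbers occur in both depots, which came from the same mice, but no source says that same-numbered pools hold the same animals. Deviations of same-numbered arrays correlated at -0.14 to 0.15, so the number was not taken as a pairing, and shared animals are not modelled. With the replicate number as a block, the bone marrow count of 14 against 6 months was 0, and with the number within age as a block the interaction count was 2 (Cidea and Cox7a1). Each gene had 1 probe set, so choosing another gave no value. Pools and 3 arrays a group limit the precision, and values near the low end of the scale understate differences. With the 90th in place of the 95th percentile of receptor probe sets, Ucp1 exceeded it on all 18 arrays and Cidea on 4 of 9 bone marrow arrays.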
